A study of Mus musculus with 7 samples.

Results

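The insulin-like growth factor (IGF) system was followed here as 10 genes, the ligands Igf1 and Igf2, the receptors Igf1r and Igf2r, and the IGF-binding proteins Igfbp2, Igfbp3, Igfbp4, Igfbp5, Igfbp6 and Igfbp7. The members were found in the table by symbol. All 10 were found among the 19257 named genes, and all 10 were among the 14782 genes tested, which had a mean normalized count of at least 10 over the 7 libraries. A normalized count is a read count divided by a size factor of its library, with no correction for gene length.

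Tumors taken at endpoint from mice with experimental glioma were profiled by bulk RNA-Seq, 1 library per brain. Both groups carried 3xCR tumors, made by in utero electroporation of Cas9 with guides that cut tumor suppressors, including Nf1 and Trp53, together with a piggyBac transposon for a fluorescent reporter. The 3xCR group, whose genotype is labelled control, had 3 libraries (replicates 2, 3 and 4), and the GPC6 group, in which the transposon also overexpressed the glypican GPC6, had 4 libraries (replicates 1 to 4). Tumor tissue was dissected by its fluorescence, so that each library mixes tumor cells with brain and immune cells, and no tumor-free brain was analysed here. The study used CD-1 and C57BL/6 mice of both sexes, and the labels give neither age, strain nor sex of an animal.

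IGF-1 and IGF-2 are secreted growth factors that activate the IGF-1 receptor, a tyrosine kinase that signals through adaptor proteins to PI3K, AKT and mTOR. The IGF-2 receptor carries IGF-2 to the lysosome for breakdown and does not signal as a kinase. IGF-binding proteins hold the ligands outside the cell, and proteases that cut them release the ligands again. In the brain the system is known for its part in growth and myelination, and IGFBP2 and IGFBP3 have long been studied as proteins of malignant glioma.

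Libraries held 7197692 to 18879762 reads on named genes, so that 3 reads, the floor used here, corresponded to 1.64 to 4.64 normalized counts. Gpc6 itself was at 217, 226 and 126 normalized counts in 3xCR 2, 3 and 4 and at 675, 263, 3434 and 5084 in GPC6 1, 2, 3 and 4, which places the library labelled GPC6 2 close to the controls. Astrocyte marker sums (7 genes, Gfap the most abundant) lay between 14517 and 62146 normalized counts and pan-neuronal sums (8 genes, Snap25 the most abundant) between 5127 and 55243, so the neural label was matched by its markers. A pair of libraries stood apart. GPC6 1 had the highest pan-neuronal sum, the highest choroid plexus sum (12718 against 72.0 to 3845 elsewhere, with Ttr at 11813) and the lowest sum of proliferation genes (1161 against 5853 to 14174). 3xCR 4 had the highest macrophage and monocyte sum (31787 against 502 to 12193, with Lyz2 at 29595) and a sum over the meningeal fibroblast list of 47292 against 418 to 3970. Col3a1 led that list at 19289, while its transporter gene Slc6a13, named after its value was seen, was at 4.14 (3 reads) there, so that the list's name was only partly matched.

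None of the 10 genes passed the test between GPC6 and 3xCR tumors. By limma, 0 of 10 had an adjusted p under 0.05, where 0 of 14782 genes (0%) did. At an unadjusted p under 0.05, 0 of 10 members were called against 689 genes (4.66%). On the recovered reads edgeR gave 991 genes at that unadjusted level and 0 at an adjusted p under 0.05. DESeq2 gave 1793 and 9, with no member among the 9. It returned no adjusted p for Igf1, Igfbp4 and Igfbp6, and no p for Igfbp4, so these could not be among them. Adjusted limma p-values of the members ran from 0.730 to 0.998. Means on the log2 scale were higher in GPC6 for 5 members and lower for 5, beside 48.3% of all genes tested that were higher, and the split became 3 higher and 7 lower with libraries scaled to equal upper quartiles, where Igf1 and Igf2r changed side. The median log2 fold change was -0.05 over the members and -0.02 over all genes. In size, the median absolute log2 fold change was 0.34 for members and 0.33 for all genes, while the median standard error was 0.71 for members and 0.38 for all genes, both given as descriptions. The smallest two-sided p that an exact permutation of 3 against 4 libraries can give is 0.0571.

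**Figure D1:**
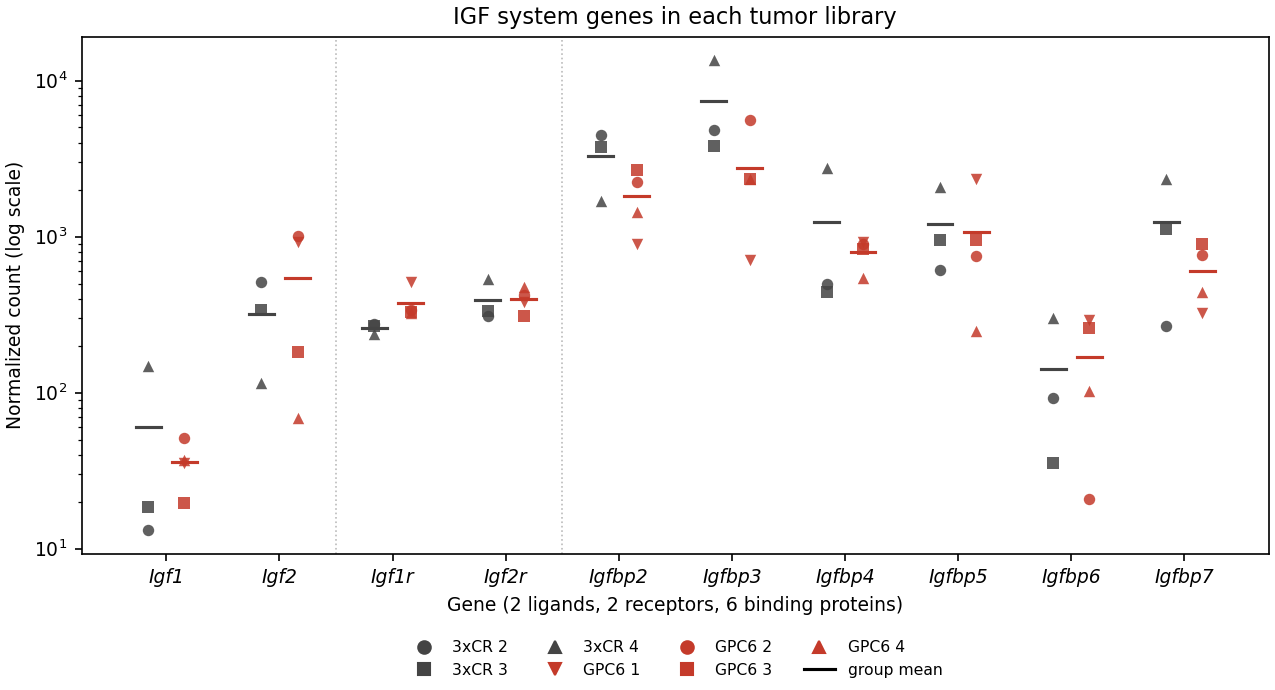
Normalized counts (vertical axis, log scale) of the 10 IGF system genes (horizontal axis) in 3 3xCR (grey) and 4 GPC6 (red) libraries, with a marker shape for each replicate number and a bar at the linear mean of each group. The groups overlapped for 9 genes and were separate for Igf1r alone, and 3xCR 4 (grey upward triangle) was the highest library for 6 genes.

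**Figure D2:**
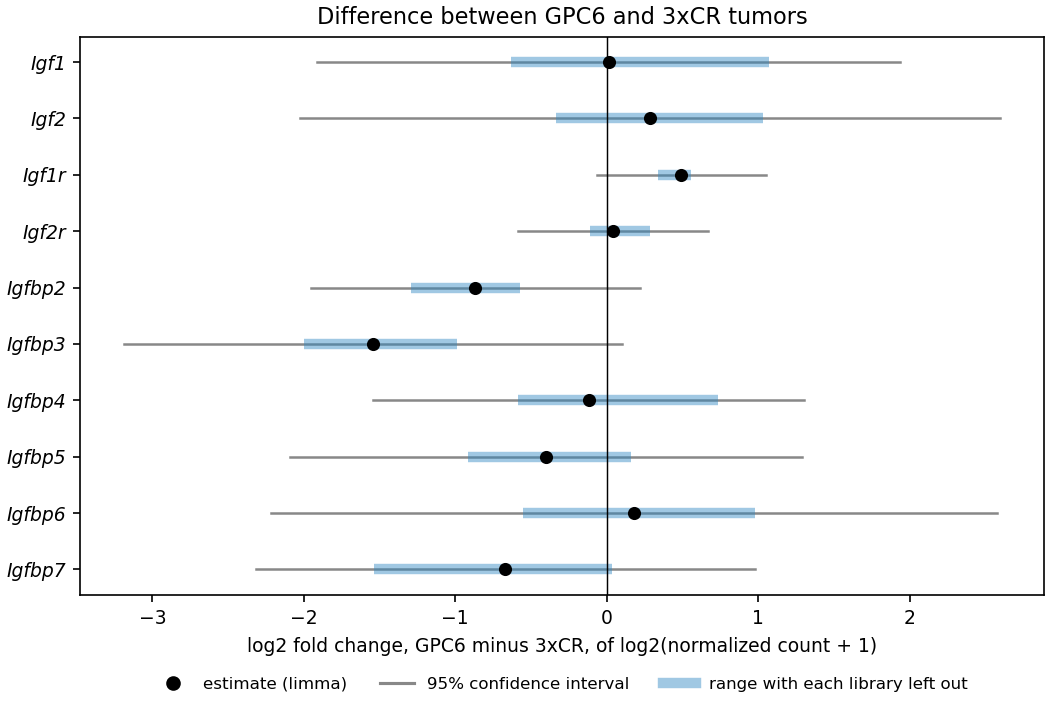
Difference between GPC6 and 3xCR tumors in log2(normalized count + 1) (horizontal axis) for each gene, with the limma estimate (point), its 95% confidence interval (grey line) and the range of estimates when each library was left out in turn (blue bar). Each grey line crossed 0, and the blue bar stayed on 1 side of 0 for Igf1r, Igfbp2 and Igfbp3 only.

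Among the ligands, Igf1 RNA was scarce and Igf2 RNA was uneven, and neither differed between groups beyond its spread. Igf1 (chromosome 10, 87858265 to 87937042, plus strand of GRCm38, the build of all positions here) had 13.2, 18.6 and 149 normalized counts in 3xCR 2, 3 and 4, and 35.5, 51.4, 19.5 and 37.0 in GPC6 1, 2, 3 and 4. These rest on 20 to 108 reads a library, and 3xCR 4 stood 2.90 times above the next library while the other 2 controls lay below each GPC6 library. The mean was 60.3 ± 77.0 (SD, n = 3) in 3xCR and 35.9 ± 13 (SD, n = 4) in GPC6, a linear ratio of 0.595, whereas the log2 fold change was 0.01 ± 0.83 (SE; limma adjusted p = 0.998). The linear and log2 means therefore point to different sides. Without 3xCR 4 the groups did not overlap, as for 7.92% of all genes tested, and the log2 fold change became 1.07 (limma adjusted p = 0.999). 3xCR 4 was also the library with the highest macrophage and monocyte sum, and GPC6 1, with the lowest such sum (502), had 35.5 normalized counts of Igf1, close to GPC6 4 at 37.0 with a sum of 11614. The part of these cells in the Igf1 values was not tested. In bulk tissue, fewer cells of a type and less RNA per cell cannot be told apart.

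Igf2, the fetal ligand that the adult brain is known to express mainly in choroid plexus and meninges (chromosome 7, 142650766 to 142666816, minus strand), had 511, 338 and 115 normalized counts in 3xCR 2, 3 and 4, and 923, 1010, 183 and 68.9 in GPC6 1, 2, 3 and 4. The GPC6 group thus held both the highest and the lowest library, 14.6-fold apart, and spanned the whole of the 3xCR group. The log2 fold change was 0.28 ± 1.00 (SE; limma adjusted p = 0.942). It turned to -0.25 without the library labelled GPC6 2, to -0.21 without GPC6 1 and to -1.26 (limma adjusted p = 0.775) without both. Without 3xCR 4 it was -0.33, and without GPC6 4 it was 1.03. Choroid plexus marker sums (8 genes) were 226, 3845 and 3724 in 3xCR 2, 3 and 4 and 12718, 381, 138 and 72.0 in GPC6 1, 2, 3 and 4, with Folr1 at 0 in GPC6 2 and Prlr at 0 in GPC6 4. The highest Igf2 library, GPC6 2, was thus not the one with the highest choroid plexus sum, and the collagen-led sum of 47292 was in 3xCR 4, the library with the second-lowest Igf2 value. The part of these cells in the Igf2 values was not tested.

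Per kilobase of exon, the scale on which genes can be compared, Igf2 exceeded Igf1 in each of the 7 libraries. The ratio of Igf2 to Igf1 was 67.3, 31.4 and 1.33 in 3xCR 2, 3 and 4 and 44.9, 34.0, 16.2 and 3.22 in GPC6 1, 2, 3 and 4. Both groups thus held a library with a low ratio and libraries with a high one.

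The receptors were the steadiest members. The SD of the log2 value over the 7 libraries was 0.31 for Igf2r and 0.35 for Igf1r, at percentiles 22.7 and 29.0 of the genes tested, and 0.80 to 1.51 for the other 8 members, all above the median of all genes of 0.52.

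Igf1r, the signaling receptor, was the only member whose groups did not overlap. The gene lies on chromosome 7 from 67952827 to 68233668 on the plus strand. It had 276, 269 and 239 normalized counts in 3xCR 2, 3 and 4, and 510, 337, 329 and 322 in GPC6 1, 2, 3 and 4. The GPC6 libraries were all above the highest control, and 3 of the 4 lay between 322 and 337, with GPC6 1 well above them. Means were 261 ± 19.5 (SD, n = 3) in 3xCR and 375 ± 90.6 (SD, n = 4) in GPC6. The log2 fold change of 0.49 ± 0.24 (SE) corresponds to a 1.41-fold higher level with a 95% confidence interval of 0.958 to 2.07, and limma gave an adjusted p of 0.730. The exact two-sided permutation p was 0.0571, the smallest this design allows. This 1 member of 10 stands beside 934 of all genes tested without overlap (6.32%), and nothing is read from a count of 1. The groups were also separate with libraries scaled to equal totals or equal upper quartiles, and the log2 fold change was 0.34 without GPC6 1, 0.43 without 3xCR 4, 0.53 without the library labelled GPC6 2, and 0.32 without GPC6 1 and 2 together. Pan-neuronal sums were 8689, 6050 and 5127 in 3xCR 2, 3 and 4 and 55243, 6201, 26467 and 9928 in GPC6 1, 2, 3 and 4, and each of the 8 genes had a higher mean in GPC6. GPC6 1 was the highest library for both Igf1r and this sum, and the part of neurons in the Igf1r values was not tested.

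Igf2r, the clearance receptor (chromosome 17, 12682406 to 12769664, minus strand), had 307, 333 and 536 normalized counts in 3xCR 2, 3 and 4, and 379, 420, 310 and 475 in GPC6 1, 2, 3 and 4. The groups interleaved, with means of 392 ± 125 (SD, n = 3) and 396 ± 69.8 (SD, n = 4). With a log2 fold change of 0.04 ± 0.27 (SE; limma adjusted p = 0.973), the 95% confidence interval of the difference was 0.665 to 1.59-fold. Per kilobase, Igf2r exceeded Igf1r in 7 of 7 libraries, at ratios of 2.01, 2.23 and 4.05 in 3xCR 2, 3 and 4 and of 1.34, 2.25, 1.70 and 2.66 in GPC6 1, 2, 3 and 4. Airn, the imprinted noncoding RNA that overlaps Igf2r on the opposite strand, was counted at 2 to 16 reads a library, against 245 to 561 for Igf2r, and whether the counting used strand is not given.

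The binding proteins carried most of the RNA of the system. Mean levels per kilobase over the 7 libraries were 1509 normalized counts for Igfbp3, 1327 for Igfbp2, 727 for Igfbp7, 223 for Igfbp4, 188 for Igfbp5 and 142 for Igfbp6. Below them came Igf2 at 78.6, Igf2r at 42.4, Igf1r at 19.4 and Igf1 at 4.68, which was 2.95 without 3xCR 4. The order of these means was the same when each level was taken over the longest transcript instead of the union of exons. Few neighbours in it were separate: Igfbp7 exceeded Igfbp4, and Igf2r exceeded Igf1r, in all 7 libraries, whereas Igfbp3 exceeded Igfbp2 in only 2 of 7. Without 3xCR 4 the mean of Igfbp3 was 1043 and that of Igfbp2 was 1396 normalized counts per kilobase. Igfbp2 was the most abundant member in 5 libraries, and Igfbp3 was in 3xCR 4 and GPC6 2.

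Igfbp2, a binding protein prominent in fetal brain and glioma (chromosome 1, 72824503 to 72852474, plus strand), had 4452, 3764 and 1685 normalized counts in 3xCR 2, 3 and 4, and 901, 2227, 2683 and 1440 in GPC6 1, 2, 3 and 4. The highest values were the first 2 controls, but 3xCR 4 lay inside the GPC6 range. Means were 3300 ± 1441 (SD, n = 3) and 1813 ± 796 (SD, n = 4). The log2 fold change was -0.87 ± 0.47 (SE; limma adjusted p = 0.730; exact two-sided permutation p = 0.171), or 0.548-fold with a 95% confidence interval of 0.258 to 1.16. Without 3xCR 4 the groups did not overlap, as for 7.92% of all genes tested, and the log2 fold change was -1.29 (limma adjusted p = 0.999). Without GPC6 1, the lowest library, it was -0.57.

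Igfbp3, the main carrier of IGFs in serum (chromosome 11, 7206086 to 7213923, minus strand), had 4833, 3791 and 13486 normalized counts in 3xCR 2, 3 and 4, and 705, 5567, 2353 and 2328 in GPC6 1, 2, 3 and 4. The controls all exceeded GPC6 1, 3 and 4, and the library labelled GPC6 2 lay between 3xCR 2 and 3xCR 4. Means were 7370 ± 5322 (SD, n = 3) and 2738 ± 2038 (SD, n = 4). It had the lowest limma p of the members, and the log2 fold change of -1.54 ± 0.71 (SE; adjusted p = 0.730; exact two-sided permutation p = 0.171) corresponds to 0.343-fold with a 95% confidence interval of 0.110 to 1.07. Without the library labelled GPC6 2, whose Gpc6 level was near the controls, the groups did not overlap, as for 16.1% of all genes tested, and the log2 fold change was -2.0 (limma adjusted p = 0.525). Without 3xCR 4 it was -0.99, and without GPC6 1 it was -1.01. The highest Igfbp3 library was the one with the collagen-rich and macrophage-rich sums and the lowest was the one with the highest neuronal sum; the part of these cells was not tested.

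The start regions of the 3 members whose direction held in each alternative, Igf1r, Igfbp2 and Igfbp3, are shown so that the genes behind these values can be located. Each line gives the 250 bases before a RefSeq transcription start on GRCm38.p6, read along the strand of the gene, with the GC box GGGCGG (searched on both strands, so also as CCGCCC) in capitals. The windows are chr7:67952007-67952256 on the plus strand for Igf1r, chr1:72824230-72824479 on the plus strand for Igfbp2, the first of its 2 start sites, and chr11:7213924-7214173 on the minus strand for Igfbp3.
Igf1r: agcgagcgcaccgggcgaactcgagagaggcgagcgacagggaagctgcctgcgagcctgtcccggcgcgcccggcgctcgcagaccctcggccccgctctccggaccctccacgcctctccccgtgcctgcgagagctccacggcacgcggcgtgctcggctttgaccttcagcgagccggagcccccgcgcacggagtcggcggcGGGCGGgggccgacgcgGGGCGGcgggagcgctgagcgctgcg
Igfbp2: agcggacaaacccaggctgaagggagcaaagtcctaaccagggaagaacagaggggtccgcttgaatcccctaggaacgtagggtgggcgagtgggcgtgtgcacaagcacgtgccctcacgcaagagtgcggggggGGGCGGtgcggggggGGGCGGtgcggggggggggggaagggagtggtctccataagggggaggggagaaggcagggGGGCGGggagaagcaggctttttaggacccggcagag
Igfbp3: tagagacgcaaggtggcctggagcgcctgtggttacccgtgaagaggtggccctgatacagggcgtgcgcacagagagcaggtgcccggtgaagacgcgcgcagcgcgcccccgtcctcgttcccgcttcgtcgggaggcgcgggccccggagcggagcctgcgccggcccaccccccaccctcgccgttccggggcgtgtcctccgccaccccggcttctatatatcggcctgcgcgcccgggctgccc
The letters occurred 2 times in the Igf1r window, 3 times in the Igfbp2 window and not in the Igfbp3 window. Over the 10 members, 6 of 14 start windows held them, beside 32.7% of 32851 mouse windows of the same length, and 2 of 14 held the TATA box TATAAA on either strand, beside 12.4%. These matches describe the letters and no binding was measured.

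Igfbp4, the substrate of the protease PAPP-A (chromosome 11, 99041244 to 99054392, plus strand), had 494, 445 and 2764 normalized counts in 3xCR 2, 3 and 4, and 917, 896, 829 and 542 in GPC6 1, 2, 3 and 4. Its direction changed when either of 2 libraries was left out. With all libraries the log2 fold change was -0.12 ± 0.62 (SE; limma adjusted p = 0.963). Without 3xCR 4 it turned to 0.73 (limma adjusted p = 0.999). Each GPC6 library then lay above both controls, where 7.92% of all genes tested had groups without overlap. Without GPC6 4 it was 0.05. 3xCR 4 was 3.02 times above the next library.

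Igfbp5, a binding protein that sits next to Igfbp2 on chromosome 1 with 5457 bases between the genes (72857932 to 72874884, minus strand), had 607, 949 and 2064 normalized counts in 3xCR 2, 3 and 4, and 2326, 750, 949 and 249 in GPC6 1, 2, 3 and 4. The GPC6 group held the highest and the lowest library. Its log2 fold change was -0.40 ± 0.73 (SE; limma adjusted p = 0.879), and it turned to 0.08 without 3xCR 4 and to 0.16 without GPC6 4. In spite of their nearness, Igfbp2 and Igfbp5 were not high in the same libraries, since GPC6 1 had the lowest Igfbp2 and the highest Igfbp5 value, and the per-kilobase ratio of Igfbp5 to Igfbp2 went from 0.042 in 3xCR 2 to 0.794 in GPC6 1.

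Igfbp6, which prefers IGF-2 over IGF-1, was the most variable member by the SD of its log2 values. The gene (chromosome 15, 102144362 to 102149511, plus strand) had 92.6, 35.3 and 300 normalized counts in 3xCR 2, 3 and 4, and 294, 20.7, 258 and 102 in GPC6 1, 2, 3 and 4. Each group held both high and low libraries, and the log2 fold change was 0.18 ± 1.04 (SE; limma adjusted p = 0.967), turning to -0.27 without GPC6 1, to -0.21 without GPC6 3 and to -0.55 without 3xCR 3. The gene whose library pattern was most like it was Stmn2, a tubulin-binding protein of neurons, with Pearson r = 0.97 over 7 libraries among 12631 genes with a mean of at least 50, given as a description. Stmn2 had 500, 287 and 1776 normalized counts in 3xCR 2, 3 and 4, and 2691, 55.3, 1996 and 843 in GPC6 1, 2, 3 and 4. Both were lowest in GPC6 2 and 3xCR 3 and highest in GPC6 1, 3xCR 4 and GPC6 3. The pan-neuronal sum did not share this order, since in 3xCR 4 it was the lowest of all at 5127.

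Igfbp7, a secreted protein that binds IGFs only weakly and is known from vessels (chromosome 5, 77349240 to 77408041, minus strand), had 267, 1115 and 2351 normalized counts in 3xCR 2, 3 and 4, and 325, 761, 894 and 439 in GPC6 1, 2, 3 and 4. The 3xCR group held the lowest library and the 2 highest. The log2 fold change was -0.67 ± 0.71 (SE; limma adjusted p = 0.798), and it moved to 0.03 without 3xCR 4 and to -1.53 without 3xCR 2, where the groups did not overlap for it and for 20.9% of all genes tested. The gene overlaps Polr2b on the opposite strand, and without knowing whether the counting used strand, reads of the overlap cannot be assigned.

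**Figure D3:**
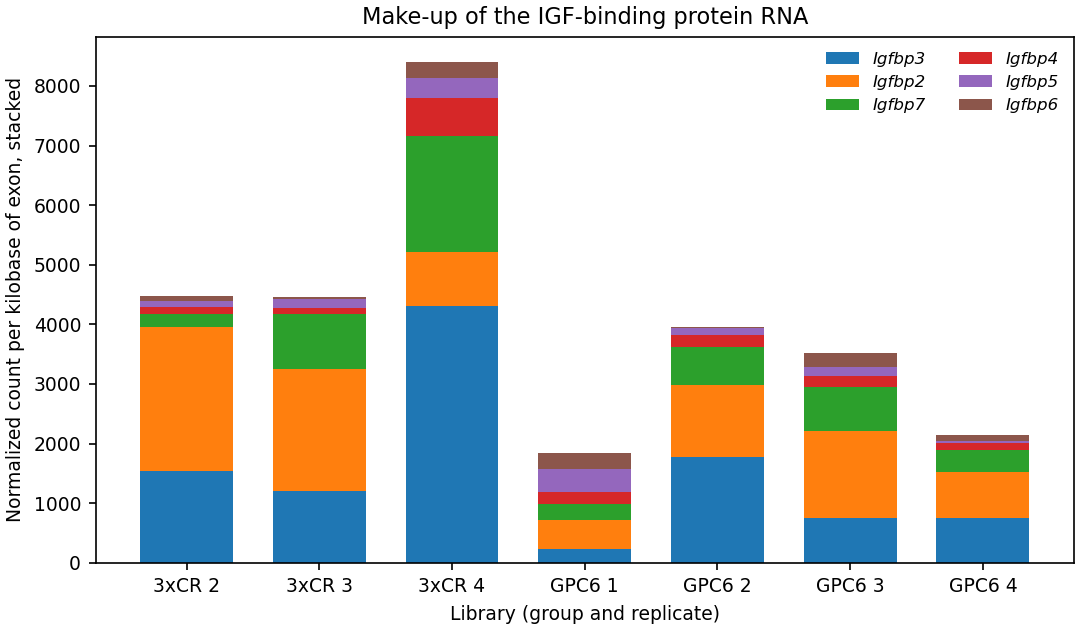
Stacked levels of the 6 IGF-binding protein genes (vertical axis, normalized counts per kilobase of exon) in each library (horizontal axis). The stack stood at 4462 to 8405 in 3xCR and at 1841 to 3960 in GPC6 libraries, and Igfbp2 and Igfbp3 made up 38.7% of it in GPC6 1 and 62.1% to 88.4% elsewhere.

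The summed level of the 6 binding proteins was 4472, 4462 and 8405 normalized counts per kilobase in 3xCR 2, 3 and 4, and 1841, 3960, 3522 and 2143 in GPC6 1, 2, 3 and 4. Each control lay above each GPC6 library. Of all genes tested, 6.32% had groups without overlap in either direction, and no such share was computed for sums of genes. This sum was put together from the members after their values were known and was not tested. Microglia marker sums separated the groups in the same direction, at 6637 to 8956 in 3xCR and 3326 to 5325 normalized counts in GPC6 over 7 genes of that list, of which 0 had a higher mean in GPC6, and their part in the binding protein sum was not tested. Igfbp2 alone made up 53.9% of it in 3xCR 2 and 10.9% in 3xCR 4. Igfbp2, Igfbp3 and Igfbp7 together made up 83.6% to 93.5% in 6 libraries and 53.3% in GPC6 1, where Igfbp5 took 21.0% and Igfbp6 14.3%. Relative to the summed ligands per kilobase, binding protein RNA was 49.3, 73.3 and 239-fold in 3xCR 2, 3 and 4 and 11.2, 21.8, 104 and 136-fold in GPC6 1, 2, 3 and 4. The ranges overlapped, and the lowest ratios were those of GPC6 1 and 2, the libraries richest in Igf2.

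**Figure D4:**
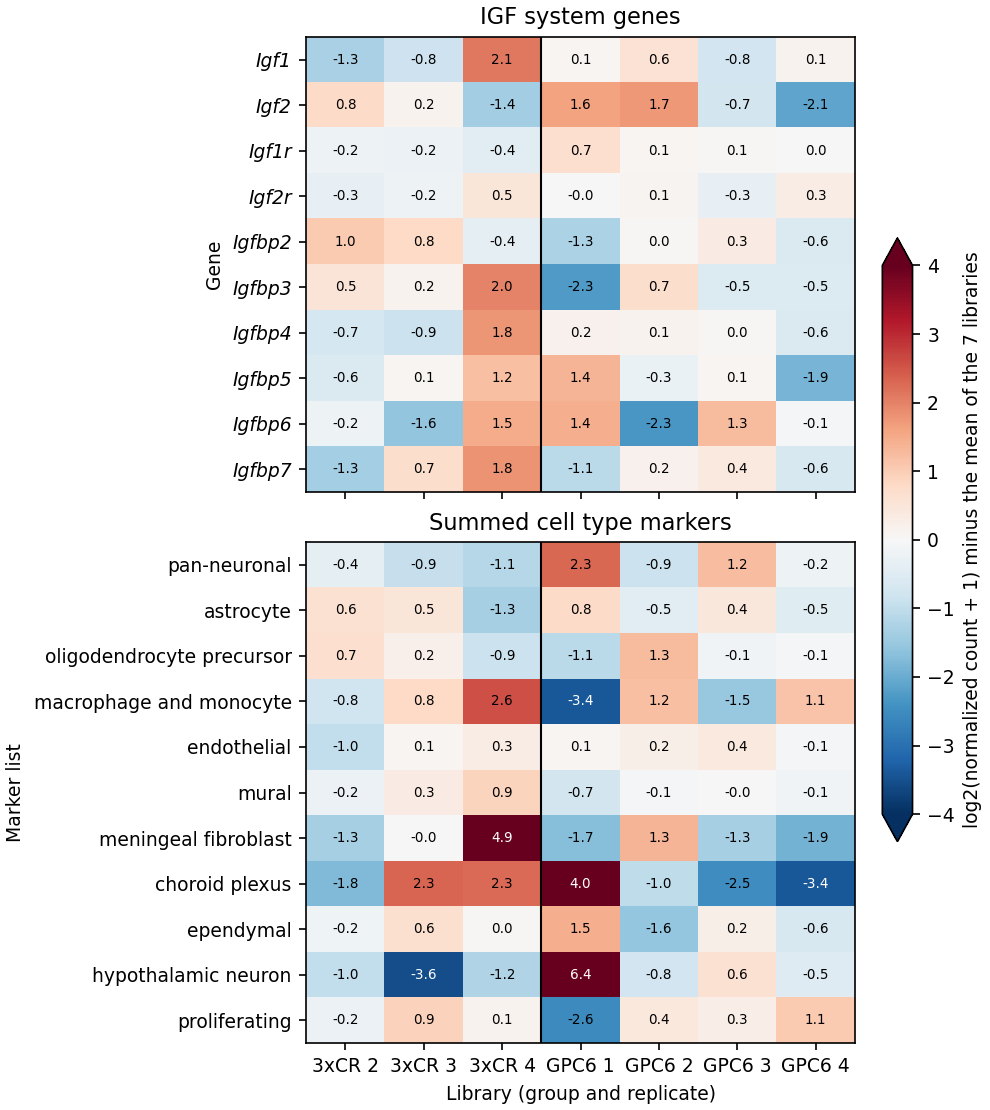
Deviation of log2(normalized count + 1) from the mean of the 7 libraries (color scale and printed numbers; colors are saturated beyond 4) for the 10 genes (top) and for the summed marker lists (bottom), with libraries as columns and a line between the groups. 3xCR 4 stood high in 6 genes and in the macrophage and fibroblast lists, and GPC6 1 stood low in Igfbp2 and Igfbp3 and high in the neuronal, choroid plexus and hypothalamic lists.

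For most members the same libraries held the extremes. 3xCR 4 was the highest of the 7 libraries for Igf1, Igf2r, Igfbp3, Igfbp4, Igfbp6 and Igfbp7, and it was the lowest for Igf1r. Igf1 stood 2.90, Igfbp4 3.02, Igfbp3 2.42 and Igfbp7 2.11 times above the next library there, while Igf2r and Igfbp6 stood 1.13 and 1.02 times above it. GPC6 1 was highest for Igf1r and Igfbp5 and lowest for Igfbp2 and Igfbp3. Without 3xCR 4, which leaves 2 controls, 4 members (Igf1, Igf1r, Igfbp2 and Igfbp4) had groups without overlap instead of 1, and 2 of them (Igfbp2 and Igfbp4) had an unadjusted limma p under 0.05, with none at an adjusted p under 0.05. Over all genes tested, 7.92% did not overlap and 0.819% had an unadjusted p under 0.05 in that setting.

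Patterns most like each member over the 7 libraries, among genes with a mean of at least 50, are descriptions of shared libraries. For Igf1 they were H6pd (Pearson r = 0.94), Mmp9 and Ssh2, and for Igf2 they were Strn4 (r = 0.99), Tmem9b and Arl8b. Ubr3 (r = 0.98) and Fto were among those for Igf1r, and for Igf2r they were Zbtb9 (r = 0.99), Pqlc1 and Ssh2. Igfbp2 was most like Aif1l (r = 0.97), B4galt4 and Kifc3, and Igfbp3 most like Lmbr1l (r = 0.99), Tax1bp3 and Nubp1. Igfbp4 was most like Gorasp2 (r = 0.99), Syvn1 and Chpf2, Igfbp5 most like Fam122a (r = 0.99), Samm50 and Slc9a3r2, Igfbp6 after Stmn2 most like Lmo4 and Rai2, and Igfbp7 most like Actn4 (r = 0.98), Pdk1 and Serpina3i. No member was among the 3 genes most like another member, but Igf1, at a mean of 46.3, could not be listed. Between members, r ran from -0.89 (Igf1r and Igfbp3) to 0.92 (Igf1 and Igf2r).

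The genes around the members on the pathway gave no call either. Of 54 further genes in 7 lists, 51 were in the table and 47 were tested, and 23 were higher and 24 lower in GPC6. By limma 0 of 47 had an adjusted p under 0.05, and 1 had an unadjusted p under 0.05, beside 4.66% of all genes tested. Igfbp1, whose gene lies 3539 bases from Igfbp3, had 0 reads in 6 libraries and 1 read in 3xCR 4, below the floor of 3 reads throughout, and Igfals, which joins IGFBP3 in the serum complex, did not exceed 3.55 normalized counts. Igfbpl1, a relative of the binding proteins, had a log2 fold change of -0.93 ± 0.64 (SE; adjusted p = 0.731). Insr, the insulin receptor, ran from 315 to 437 normalized counts in 3xCR and from 330 to 532 in GPC6 libraries, with a log2 fold change of 0.26 ± 0.26 (SE; adjusted p = 0.784).

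Proteases that cut IGF-binding proteins and the stanniocalcins that restrain them had lower log2 means in GPC6 for 5 of 5 tested. Of all genes tested, 48.3% had a higher log2 mean in GPC6. The 5 were also lower under both other scalings, and their direction with single libraries left out is not given here. Their median log2 fold change was -0.66 beside -0.02 over all genes, and none passed the test. Pappa2, also of this list, was not tested, as its mean of 7.14 normalized counts lay below 10. It went the other way, with a mean of 3.20 in 3xCR and 10.1 in GPC6 libraries, where it ran from 0 to 27.5. Htra1, the most abundant, was at 2302, 2392 and 2687 normalized counts in 3xCR 2, 3 and 4, and at 3731, 1967, 1549 and 616 in GPC6 1, 2, 3 and 4, so that the groups overlapped. Stc1 (log2 fold change -0.78 ± 0.65, SE) and Stc2 (-0.53 ± 0.86, SE) were the ends of the list. Stc2 was at 35.1, 88.4 and 159 normalized counts in 3xCR 2, 3 and 4. In GPC6 1, 2, 3 and 4 it was at 13.9, 39.5, 134 and 115.

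Receptor adaptors split into 5 higher and 4 lower of 9 tested, with a median log2 fold change of 0.07. Grb2, the adaptor that links receptors to Ras, was almost level, at 1650 to 2032 normalized counts in 3xCR and 1504 to 1946 in GPC6. Shc1 had a log2 fold change of -0.82 ± 0.52 (SE; adjusted p = 0.730). Irs4, an insulin receptor substrate known from the hypothalamus, had the largest value of the list, 0.92 ± 1.24 (SE; adjusted p = 0.836), and this rested on GPC6 1, where it was at 98.9 normalized counts against 1.98 to 15.8 elsewhere. GPC6 1 also had a hypothalamic neuron sum of 1000 with Avp at 541, against sums of 0 to 16.9 in the other libraries. The part of these cells in the Irs4 values was not tested.

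PI3K-AKT-mTOR genes were higher in GPC6 for 15 and lower for 6 of 21 tested, beside 48.3% of all genes that were higher. The split was 18 and 3 with libraries scaled to equal totals, beside 52.3% of all genes. It was 15 and 6 with equal upper quartiles, beside 43.7%. The median log2 fold change was 0.09, or 0.04 with equal upper quartiles, and none passed the test. Tsc1, a brake on mTOR, was the only 1 of 47 pathway genes whose groups did not overlap, beside 6.32% of all genes tested. It was at 405, 357 and 278 normalized counts in 3xCR 2, 3 and 4 and at 862, 430, 520 and 407 in GPC6 1, 2, 3 and 4. The lowest GPC6 library (407) and the highest control (405) were nearly level, and limma gave an adjusted p of 0.730 for a log2 fold change of 0.63 ± 0.31 (SE). Eif4ebp1, the translation repressor that mTOR inactivates, had a log2 fold change of -1.59 ± 0.78 (SE; adjusted p = 0.730), with 445, 786 and 1805 normalized counts in 3xCR 2, 3 and 4 and 89.7, 185, 672 and 582 in GPC6 1, 2, 3 and 4. Akt1, the kinase that follows PI3K and the most abundant of the list, had a log2 fold change of -0.41 ± 0.22 (SE; adjusted p = 0.730).

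Around Igf2, H19, the noncoding RNA of the same imprinted locus with 72622 bases between the genes, had 352, 2637 and 1065 normalized counts in 3xCR 2, 3 and 4, and 21.6, 541, 582 and 1051 in GPC6 1, 2, 3 and 4. GPC6 1, with the least H19, had the second-highest Igf2 value, whereas GPC6 2, with the highest Igf2 value, had 541 normalized counts of H19. H19 had a log2 fold change of -1.76 ± 1.32 (SE; adjusted p = 0.738). Igf2bp2, which encodes a protein that binds Igf2 mRNA, was at 178, 74.4 and 326 normalized counts in 3xCR and at 27.8, 136, 23.1 and 49.4 in GPC6, and at a log2 fold change of -1.81 ± 0.72 (SE) it was the 1 pathway gene with an unadjusted limma p under 0.05 (adjusted p = 0.730), with overlapping groups. Plagl1, a zinc finger gene that regulates this imprinted network, had a log2 fold change of 0.57 ± 0.62 (SE; adjusted p = 0.801).

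Of the growth hormone axis, 1 gene was higher and 4 were lower of 5 tested, beside 48.3% of all genes that were higher. Jak2, the kinase of the growth hormone receptor, had a log2 fold change of -0.40 ± 0.25 (SE; adjusted p = 0.730), Socs2, a feedback inhibitor, of -0.67 ± 0.42 (SE; adjusted p = 0.730) and Stat5b, the transcription factor between them, of 0.09 ± 0.25 (SE; adjusted p = 0.921).

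**Figure D5:**
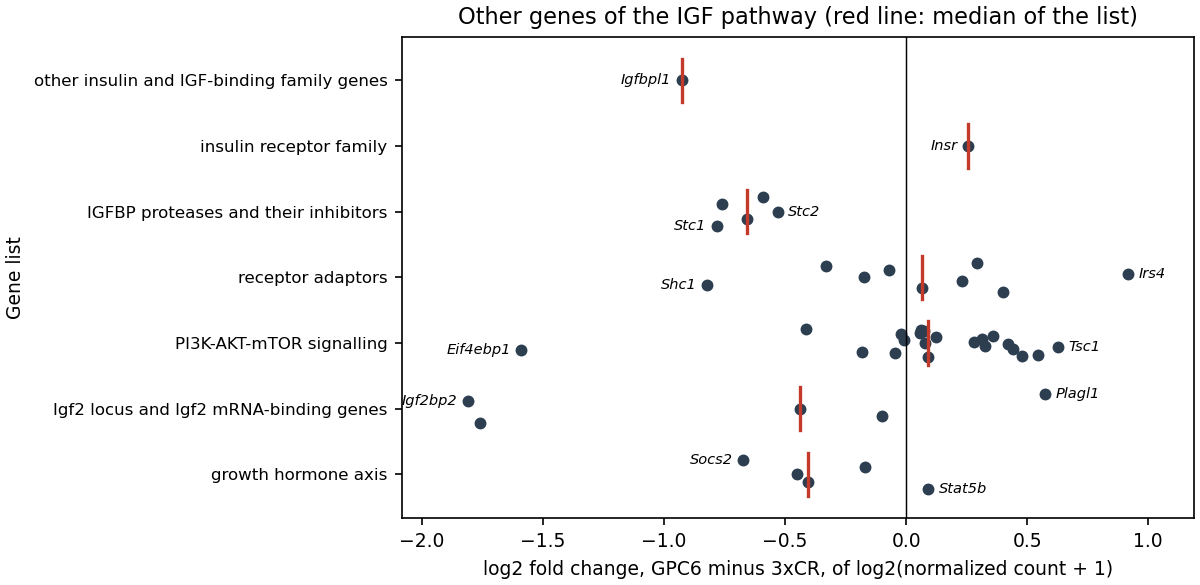
Difference (log2 fold change, GPC6 minus 3xCR, horizontal axis) of the 47 tested pathway genes other than the members, in 7 lists (vertical axis), with a red line at the median of each list and the lowest and highest gene of a list named. The 5 tested genes of the protease list lay below 0 and the PI3K-AKT-mTOR list mostly above it. None of the genes shown had an adjusted p under 0.05.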

How the data were processed

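RNA-Seq of 7 tumor brains was analysed, 3 in the 3xCR and 4 in the GPC6 group, as the labels assign them. Libraries were made with a stranded mRNA kit. The authors aligned reads to mm10 with STAR (version 2.5.0a), counted them per gene and normalized with DESeq2 (version 1.20.0), and whether the counting used strand is not given in the sources used here. The deposited table is a normalized signal per gene, a count divided by a size factor, so that 100% of values returned to whole reads within 0.01 reads. Of 19282 entries, 25 had names turned into dates and were left out, and 0 columns per sample were unused.

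Genes with a mean of at least 10 were tested with limma (version 3.58.1, R 4.3.3) after the transformation log2(normalized count + 1), using a variance trend, two-sided, without covariates, and p-values were adjusted by Benjamini-Hochberg over all 14782 genes. A fold change on this scale understates the change of low genes. Because the table is normalized, count tests with edgeR (version 4.0.16) and DESeq2 (version 1.42.0) on the recovered reads were alternatives, beside other pseudocounts, filters, scalings, voom, variance settings, library weights, a replicate block and left-out libraries. Single genes were also compared by exact permutation of the 35 assignments. The fit was tested on simulated data. Those data had large changes and in part less spread than these libraries, so they do not measure power for smaller changes. The labels call the libraries replicates and the study gives 1 brain each; p-values cover the spread between these libraries, and counting intervals and floors cover counting error only.

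Levels per kilobase used the union of exons in GENCODE M21 (GRCm38), and start windows came from RefSeq (GRCm38.p6), where all 10 members matched. All members are named, and of each pathway list the most abundant gene and those with the largest and the smallest log2 fold change. The members and lists were chosen with earlier results of these data known. A further target of the guides and some genes and marker lists under these rules are not reported here, and Ins1, Ins2 and Igf2bp1 were not analysed here.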

Additional observations from a re-analysis of the deposited data

Results flagged for a closer look

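Among groups of 4 libraries, the gap between an extreme library and its neighbour was divided by the range, both on log2(normalized count + 1). This ratio was compared with Dixon's 95% critical value for 70 quantities (each member, pathway gene and marker sum in the GPC6 group). Chance alone would pass 3.5 of them, and 3 passed. Igf1r was at 510 normalized counts in GPC6 1, while the remaining GPC6 libraries lay between 322 and 337 and the controls between 239 and 276. Pik3ca, a catalytic subunit of PI3K, was at 952 in GPC6 4, while the remaining GPC6 libraries lay between 645 and 685 and the controls between 645 and 731. Airn was at 3.09 in GPC6 1, which is 2 reads, while the remaining GPC6 libraries lay between 11.3 and 11.9 and the controls between 6.58 and 22.1.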

How the results depend on the processing

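Over 21 alternatives (20 for Igf1, which a mean of at least 50 removed), no member reached an adjusted p under 0.05. DESeq2 gave no adjusted p for Igf1, Igfbp4 and Igfbp6. Igf1r, Igfbp2 and Igfbp3 kept their direction throughout, at 0.32 to 0.56, -1.29 to -0.57 and -2.0 to -0.79. The other 7 changed direction at least once, for which the cause was not tested. Igf1 was -0.045 with a pseudocount of 5, -0.038 with equal upper quartiles, -0.73 with edgeR and -0.73 with DESeq2. Igf2r was -0.011 with equal upper quartiles. With library weights, which ran from 0.301 to 8.71, Igf2 was -0.63, Igf2r -0.030 and Igfbp4 0.73. In that setting 1962 of 14782 genes tested and 3 of 47 pathway genes (Grb14, Tsc1 and Mtor) had an adjusted p under 0.05. There 4 members (Igf1r, Igfbp2, Igfbp3 and Igfbp6) had an unadjusted p under 0.05, beside 34.5% of all genes. Igfbp6 was 2.17 there, with the lowest adjusted p of any member and alternative (0.0565). DESeq2 called 9 genes, with 2 members (Igf1r and Igfbp3) at an unadjusted p under 0.05 beside 12.1% of all genes, and equal totals gave 1 (Igf1r) beside 4.82%. Without GPC6 1 and 2 together, Igf1 was -0.31 and Igf2 -1.26, 1 member (Igfbp3) had an unadjusted p under 0.05 beside 6.1% of all genes, and 2 (Igf1r and Igfbp3) did not overlap beside 23.6%. With each library left out in turn, log2 fold changes ran from -0.63 to 1.07 for Igf1, -0.33 to 1.03 for Igf2, -0.11 to 0.29 for Igf2r, -0.58 to 0.73 for Igfbp4, -0.91 to 0.16 for Igfbp5, -0.55 to 0.98 for Igfbp6 and -1.53 to 0.032 for Igfbp7. Members at an unadjusted p under 0.05 ran from 0 to 2 and those without overlap from 1 to 4, beside 0.819% to 9.46% and 7.92% to 20.9% of all genes. Deviations of same-numbered libraries from their group means correlated at r = -0.19, 0.12 and 0.30 for numbers 2, 3 and 4, and of the controls 3xCR 4 alone correlated best with its own number, so the numbers were not taken as pairs; with a replicate block, which leaves GPC6 1 without a partner, Igf1 was -0.0093, Igf2 -0.21 and Igfbp6 -0.27, and 1 member (Igfbp2) had an unadjusted p under 0.05, beside 4.59% of all genes. Scalings moved the median log2 fold change of all genes from -0.02 to 0.03 and -0.07. The level of Igf1r per kilobase was 28.6 over its longest transcript. With 3 and 4 libraries and a median standard error of 0.71, the 95% confidence interval of each member's log2 fold change held 0.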
